A study of Homo sapiens with 6 samples.

Results

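The retinal guanylate cyclases and the proteins that activate them were followed in retinal organoid fragments that had been transplanted into dog eyes or kept in a dish. The family had 5 members, GUCY2D, GUCY2F, GUCA1A, GUCA1B and GUCA1C, taken by gene symbol from the 36601 genes of each matrix. The organoids were grown from the established human stem cell line WA09, of embryonic origin, carrying a CRX-tdTomato reporter, and were at day 113 to 126 of differentiation. CRX is a transcription factor of photoreceptor precursors. Transplanted samples were fragments recovered 3 days after injection under the retina of normal dogs, and cultured samples were fragments of the same organoid batches held in a dish for those 3 days. Each of 3 independent experiments, called Sets, gave 1 transplanted and 1 cultured library, so n = 3 per group and the Set pairs the libraries. All groups share 1 cell line, so the spread between samples is between experiments and not between donors, and the dog eyes were normal rather than degenerate.

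In photoreceptors, light leads to hydrolysis of cyclic GMP, which closes cation channels and lets calcium fall. Guanylate cyclase activating proteins (GCAPs) sense that fall and switch on the membrane cyclases, which rebuild cyclic GMP so that the cell recovers from light. GUCY2D encodes the main cyclase of both rods and cones and GUCY2F a second, related cyclase, while GUCA1A, GUCA1B and GUCA1C encode the calcium sensors GCAP1, GCAP2 and GCAP3. Mutations of GUCY2D and GUCA1A cause inherited retinal disease, and GUCA1C is known as a cone gene in the human retina.

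Counts of unique molecular identifiers (UMIs, 1 per captured RNA molecule) were summed over 3 cell classes in each library and given as counts-per-million (CPM). Rods were cells with at least 3 NRL UMIs and more NRL than PDE6H, cones were cells with at least 3 PDE6H UMIs and more PDE6H than NRL, and the remaining cells formed the third class. NRL is the transcription factor of rod fate and PDE6H the inhibitory subunit of the cone phosphodiesterase. The cells were thus selected on the NRL and PDE6H values, which are not tested, and the family was chosen by its function with the rise of GUCA1B in rods already known. Of 39580 cells kept, 9094 were rods, 5211 were cones and 25275 were other cells. Rods numbered 1597, 170 and 1265 in the transplanted libraries of Sets 1, 2 and 3, against 2664, 3044 and 354 in the cultured ones. Cones numbered 1258, 34 and 400 in the transplanted libraries, against 2440, 953 and 126 in the cultured ones, so that the transplanted Set 2 cone values rest on 34 cells.

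Total UMIs per library ranged from 6850189 to 45281930 in transplanted samples and from 8000032 to 108222149 in cultured samples. No pair of libraries shared more than 0.87% of the smaller library's cell barcodes. The names of the classes were checked against marker genes. The rod arrestin SAG, an RNA of mature rods, was at 0.69 to 5.22 CPM in rods of the 6 samples, so the NRL-gated cells held little of it. Other rod markers differed from SAG. CNGB1, PDE6B and GNAT1 averaged 95.2, 63.5 and 39.7 CPM in rods, against 40.7, 31.8 and 9.86 CPM in cones. PDE6A was low in both, at 2.20 CPM in rods and 2.52 CPM in cones. They are called rods here in the sense of the gate.

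The promoters of the 2 cyclases are shown because these genes share a role and differed most plainly in whether RNA was found, with GUCY2D detected in every library and GUCY2F at or near 0. Both sequences are RefSeq promoter windows of build GRCh38.p14 on the gene's own strand, 250 bases before to 50 bases after the start of transcription. The GUCY2D window is chr17:8002365-8002664 on the plus strand and the GUCY2F window chrX:109482037-109482336 on the minus strand. Capitals mark matches to TAATCC, a hexamer bound by CRX-type homeodomain factors, searched on both strands (its reverse complement is GGATTA).
GUCY2D: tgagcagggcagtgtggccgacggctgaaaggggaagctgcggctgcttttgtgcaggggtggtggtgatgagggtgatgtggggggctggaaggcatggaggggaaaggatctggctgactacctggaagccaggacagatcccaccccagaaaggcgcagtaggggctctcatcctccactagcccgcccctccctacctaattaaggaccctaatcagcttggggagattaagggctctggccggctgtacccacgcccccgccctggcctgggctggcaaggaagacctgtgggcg
GUCY2F: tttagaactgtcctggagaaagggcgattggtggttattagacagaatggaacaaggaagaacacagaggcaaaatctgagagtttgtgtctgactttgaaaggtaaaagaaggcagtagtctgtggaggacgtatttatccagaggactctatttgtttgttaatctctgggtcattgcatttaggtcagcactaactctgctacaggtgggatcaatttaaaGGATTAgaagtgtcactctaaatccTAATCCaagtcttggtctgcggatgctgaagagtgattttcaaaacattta
The GUCY2F window held 2 matches, beginning 26 bases and 1 base before the start, and the GUCY2D window held 0. The GUCA1A window, chr6:42173114-42173413 on the plus strand, also held 2 matches, beginning 144 and 88 bases before the start. The GUCA1C windows held 0. Among 35116 promoter windows of the same length, 6.4% held at least 1 match and 0.4% held 2 or more. The table had a window for 4 of the 5 members, all but GUCA1B. Only this hexamer was searched, so 0 matches does not show that a window lacks other forms of the site. A match describes these letters alone and says nothing of binding.

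GUCY2D (ENSG00000132518, chr17:8002594-8020339, GRCh38, GENCODE v29) was the cyclase gene with RNA in photoreceptors, at similar levels in rods and cones and at lower levels in other cells. In rods it had 4.16, 12.5 and 18.3 CPM in transplanted Sets 1, 2 and 3, against 2.51, 8.02 and 16.7 CPM in cultured Sets 1, 2 and 3. Set 1 was lowest and Set 3 highest in both groups, and the groups overlapped. Set 1 was processed with another Cell Ranger version than Sets 2 and 3, and the part of this in the differences between Sets was not tested. In cones it had 5.58, 5.53 and 15.3 CPM in transplanted samples, against 3.32, 6.95 and 21.1 CPM in cultured samples. The cone groups overlapped as well, and Set 3 was again the highest. In other cells it had 0.688, 7.41 and 13.2 CPM in transplanted samples, against 0.584, 1.57 and 10.6 CPM in cultured samples.

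By class, GUCY2D averaged 10.4 ± 6.53 CPM in rods, 9.62 ± 6.98 CPM in cones and 5.672 ± 5.502 CPM in other cells (SD, n = 6 each). The 6 samples came from 3 experiments, so samples of a Set are not independent here or in the tests between classes. Rods and cones could not be told apart, with a log2 difference of -0.02 (SE 0.14, 95% interval -0.31 to 0.27, edgeR adjusted p = 0.959), and rods were the higher class in 3 of 6 samples. Between these 2 classes 14.5% of 17575 genes tested were called at an adjusted p under 0.05. Rods exceeded other cells by 1.57 on the log2 scale (SE 0.28, edgeR adjusted p = 0.00236), in 6 of 6 samples, where 27.4% of all genes were called. Cones exceeded other cells by 1.66 (SE 0.34, edgeR adjusted p = 0.0035), in 5 of 6 samples, where 33% of all genes were called. In the transplanted samples alone the cone excess was 1.25 and was not called (edgeR adjusted p = 0.15). Other cells with a CRX UMI averaged 8.88 ± 7.17 CPM of GUCY2D (SD, n = 6), near the rod and cone means.

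The GUCY2D difference between transplanted and cultured rods was not called after adjustment over all genes, although its unadjusted interval lay above 0. The log2 change was 0.66 (SE 0.26, 95% interval 0.12 to 1.21, edgeR adjusted p = 0.161), upward in 3 of 3 Sets, with within-Set ratios of 1.66, 1.56 and 1.09. The counting interval of the Set 3 ratio, 0.798 to 1.53, includes equality. In cones the log2 change was 0.15 (SE 0.35, 95% interval -0.60 to 0.90, edgeR adjusted p = 0.912), upward in 1 of 3 Sets. In other cells it was 0.90 (SE 0.45, edgeR adjusted p = 0.538).

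GUCY2F (ENSG00000101890, chrX:109372906-109482072) gave almost no counts. It had 11 UMIs among 97965471 in rods, 2 among 52891148 in cones and 19 among 91772634 in other cells. The highest sum in any sample and class was 1.32 CPM, from 2 UMIs in cultured Set 3 cones. Over all samples its level was 0.112 CPM in rods (95% exact interval 0.0561 to 0.201, counting error only), 0.0378 CPM in cones (0.00458 to 0.137) and 0.207 CPM in other cells (0.125 to 0.323). It did not pass the low-count filter in any edgeR comparison and was not fitted. In other cells it had 1, 0 and 0 UMIs in transplanted Sets 1, 2 and 3, against 4, 11 and 3 UMIs in cultured Sets 1, 2 and 3, or 0 to 0.0529 CPM in transplanted and 0.123 to 0.908 CPM in cultured samples. These groups did not overlap, and the transplanted sample was lower in 3 of 3 Sets. The share of other cells with a GUCY2F UMI was 0.00746% ± 0.0129 in transplanted and 0.149% ± 0.0965 in cultured samples (SD, n = 3 each). An exact two-sided permutation test that did not use the pairing by Set gave p = 0.1, the smallest that this unpaired test allows. No fold is given, since 1 UMI was counted over the transplanted samples. The 0 of transplanted Set 2 has an exact 95% upper limit of 2.28 CPM, above every cultured value. In rods and cones the groups overlapped.

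GUCA1A (ENSG00000048545, chr6:42155406-42180056) was likewise near 0, with 3 UMIs in rods, 5 in cones and 0 in other cells. A count of 0 among 91772634 UMIs has an exact 95% upper limit of 0.0402 CPM, and 3 counts of that total are 0.0327 CPM. Of the 5 cone UMIs, 4 came from transplanted Set 3. These counts are uncertain, since AL096814.1 lies inside the GUCA1A locus, at chr6:42155426-42163439 on the same strand, and reads shared by overlapping genes may go uncounted. AL096814.1 itself had 0 UMIs in all 3 classes. AL096814.2 (ENSG00000287363), which the gene name table lists as GUCA1ANB and which was looked at after the GUCA1A counts were seen, had 56 UMIs in rods, 100 in cones and 40 in other cells, and no more than 3.94 CPM in any sample.

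GUCA1B (ENSG00000112599, chr6:42184401-42194916, minus strand), which encodes GCAP2, carried most of the family's counts, with 7742 UMIs in rods, 9057 in cones and 1839 in other cells. It was highest in cones, lower in rods and lowest in other cells in each of the 6 samples, and in rods it was higher after transplantation in every Set. In rods it had 72.7, 113.7 and 170.6 CPM in transplanted Sets 1, 2 and 3, against 22.8, 58.8 and 40.5 CPM in cultured Sets 1, 2 and 3. The lowest transplanted value lay above the highest cultured value, so the rod groups did not overlap. Full separation of 3 samples from 3 has p = 0.1 in an exact two-sided permutation test. The share of all genes without overlap was not counted, so each mention of it in this report is a description only. In cones it had 163.1, 130.9 and 323.7 CPM in transplanted samples, against 105.2, 119.1 and 151.7 CPM in cultured samples. The cone groups overlapped, with transplanted Set 2, the 34-cell sample, below cultured Set 3. In other cells it had 22.5, 37.7 and 53.5 CPM in transplanted samples, against 8.14, 18.03 and 29.7 CPM in cultured samples, again with overlap.

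**Figure D1:**
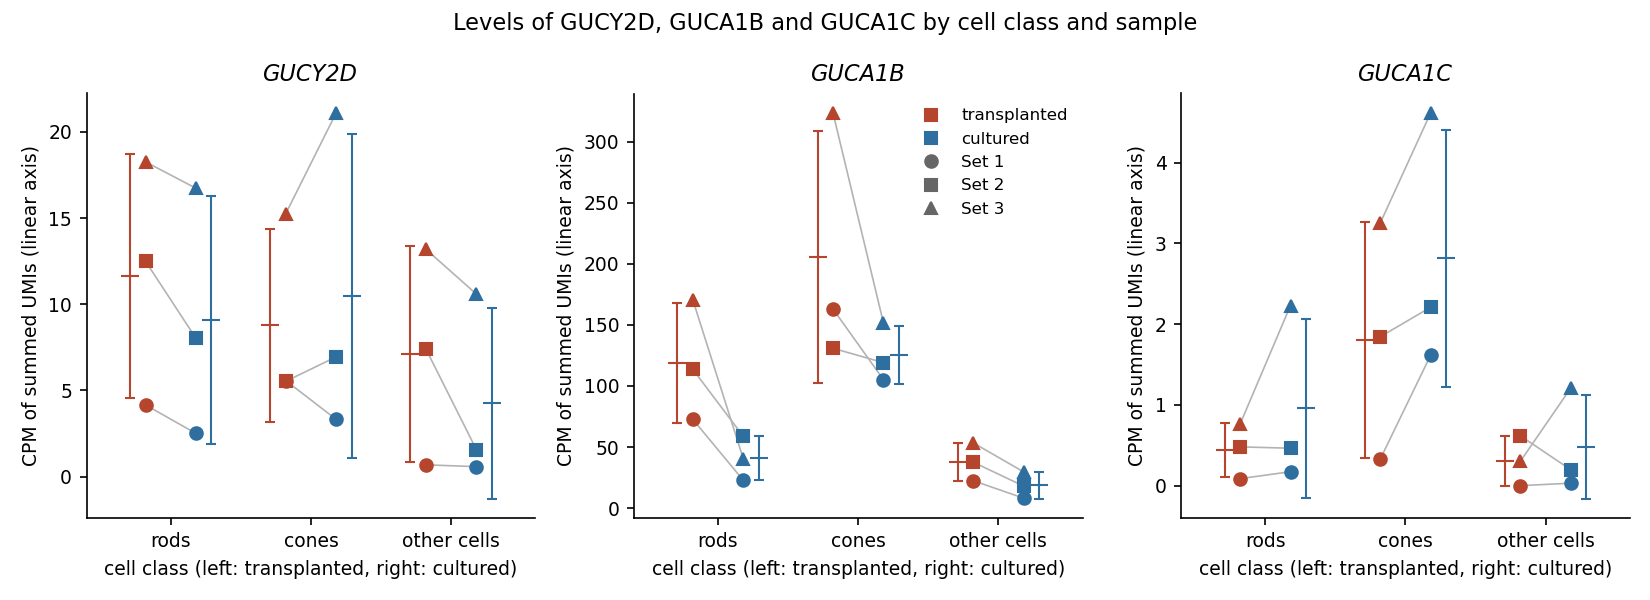
CPM of GUCY2D, GUCA1B and GUCA1C (vertical axes, linear, a different scale in each panel) in rods, cones and other cells, with transplanted samples left of cultured ones. Symbols are Sets, grey lines join the 2 samples of a Set, and dashes with bars are the mean ± SD of 3 samples; the transplanted rods lie at 72.7 to 170.6 CPM of GUCA1B, all above the cultured rods.

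The change of GUCA1B in rods belongs to an earlier result on the same samples that was known when the family was chosen, and it is given as a description. Its p-values come from those samples and are not independent support. GUCA1B averaged 119 ± 49.2 CPM in transplanted rods and 40.72 ± 17.999 CPM in cultured rods (SD, n = 3 each). Within Sets 1, 2 and 3 the ratio was 3.19, 1.93 and 4.21, with counting intervals from 1.75 at the lowest to 5.14 at the highest. The log2 change was 1.71 (SE 0.26, 95% interval 1.17 to 2.26, edgeR adjusted p = 0.00179), where 4.42% of 17976 genes were called, 392 higher and 403 lower. Of the 2 members tested in rods, GUCA1B was called and GUCY2D was not. A fit without the Set called 0 genes by edgeR (491 at an unadjusted p under 0.05), with a GUCA1B change of 1.69 and an adjusted p of 1, while DESeq2 without the Set called 25, GUCA1B among them.

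Some other measures moved with the rod groups. PDE6H, the gate gene of cones, was at 373, 631 and 578 CPM in transplanted rods, against 288, 377 and 175 CPM in cultured rods, higher in every Set. Cones hold more GUCA1B than rods, and rods with 0 PDE6H UMIs were also taken alone. These were 827, 107 and 586 cells in transplanted Sets 1, 2 and 3, against 1777, 1777 and 263 in cultured Sets 1, 2 and 3. They were shallower cells, with 3268830 of the 18401170 rod UMIs in transplanted Set 3. A count of 0 in such cells does not show that PDE6H RNA was absent. In the rods with 0 PDE6H UMIs the log2 change of GUCA1B was 1.496 (SE 0.25, edgeR adjusted p = 0.0152). The 8 cone markers did not move one way in rods, and all 8 had counts in every sample. GNGT2 was lower in transplanted rods in 3 of 3 Sets, while PDE6H, ARR3, CNGA3 and PDE6C were among those higher in 3 of 3 Sets. The sum of all 8 was 571 to 1052 CPM in transplanted and 658 to 973 CPM in cultured rods. The part of these markers in the GUCA1B result, PDE6H included, was not tested.

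The 5 dividing-cell markers summed to 46.9 to 113 CPM in transplanted rods and to 178 to 594 CPM in cultured rods, without overlap, and all 5 had counts in every sample. The 5 T and NK cell markers summed to 6.94 to 22.8 CPM in transplanted rods and to 3.54 to 6.47 CPM in cultured rods, with TRAC the largest part in every sample (6.85 to 22.6 CPM in transplanted and 2.60 to 6.07 CPM in cultured rods), while CD3D and NKG7 were at 0 in all 6 samples. Their part in the GUCA1B result was not tested. Reads of dog cells can align to human genes. When cells with few clone-named human transcripts were left out, which removed 106 of the 1265 transplanted Set 3 rods, the log2 change was 1.69 (SE 0.24, edgeR adjusted p = 4.56e-06).

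In cones the GUCA1B change did not pass the test. It averaged 206 ± 103 CPM in transplanted cones and 125 ± 23.9 CPM in cultured cones (SD, n = 3 each), higher in 3 of 3 Sets, with within-Set ratios of 1.55, 1.10 and 2.13. The log2 change was 0.69 (SE 0.32, 95% interval 0.00 to 1.37, edgeR adjusted p = 0.44), where 0.556% of 17618 genes were called. With single samples or Sets left out it ran from 0.32, without cultured Set 3, to 1.0004, without transplanted Set 2. Of the 3 members tested in cones, 0 were called. Cones with 0 NRL UMIs gave a log2 change of 0.10 (SE 0.53, 95% interval -0.98 to 1.17), from 9 cells in transplanted Set 2.

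In other cells the log2 change of GUCA1B was 1.15 (SE 0.23, 95% interval 0.63 to 1.67), higher in 3 of 3 Sets, and missed the threshold (edgeR adjusted p = 0.107), where 0.212% of 20296 genes were called. It was called by DESeq2 (adjusted p = 0.0225), by edgeR without the low-count filter (0.0139), with the host filter (0.0339), without Set 2 (0.00493) and without Set 3 (0.0226). In all, 9 of 20 alternatives called it. The other 11 did not, with log2 changes of 0.91 to 1.27. Among other cells with at least 1 CRX UMI, GUCA1B had 82.0, 52.5 and 70.4 CPM in transplanted samples, against 27.1, 30.6 and 43.2 CPM in cultured samples. These groups did not overlap.

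The rod response was compared with the cone response in 1 model. The response of rods exceeded that of cones by 0.89 on the log2 scale for GUCA1B (SE 0.38, 95% interval 0.00 to 1.77), which was not called (edgeR adjusted p = 1), where 0.0205% of 19512 genes were called. With every cell reduced to 2000 UMIs the difference was 1.12 and was called (edgeR adjusted p = 0.00857). Thinned cells were gated anew, which left 18 cones in transplanted Set 2. Without Set 2 it was 1.09 and was called (edgeR adjusted p = 5.24e-08), in a fit with fewer samples. These were 2 of 8 alternatives. In the other 6 the difference was 0.82 to 1.01 and was not called. For GUCY2D the difference of responses was 0.20 (95% interval -0.39 to 0.79) and for GUCA1C 0.12 (95% interval -1.20 to 1.45).

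Between classes, GUCA1B averaged 79.9 ± 54.2 CPM in rods, 166 ± 80.3 CPM in cones and 28.2 ± 15.9 CPM in other cells (SD, n = 6 each). Rods were lower than cones by a log2 difference of -1.27 (SE 0.26, 95% interval -1.91 to -0.63, edgeR adjusted p = 0.0248), in 6 of 6 samples. That call was lost without Set 2 (edgeR adjusted p = 0.0681), without Set 3 (0.107), in cultured samples alone (-1.65, adjusted p = 0.0628) and in transplanted samples alone (-0.79, adjusted p = 0.088). Rods exceeded other cells by 1.60 (SE 0.18, edgeR adjusted p = 0.000173) and cones exceeded other cells by 2.87 (SE 0.17, edgeR adjusted p = 1.81e-06), each in 6 of 6 samples. Against only those other cells with a CRX UMI, rods were higher in 3 of 6 samples and lower in 3, with means of 79.9 and 51.0 CPM. Cones were higher than those cells in 6 of 6 samples. With every cell thinned to 2000 UMIs the difference between rods and cones was -1.88. Of the 7 calls between classes for the members, 1 was kept without the sample as a block, that of GUCA1B in cones over other cells.

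**Figure D2:**
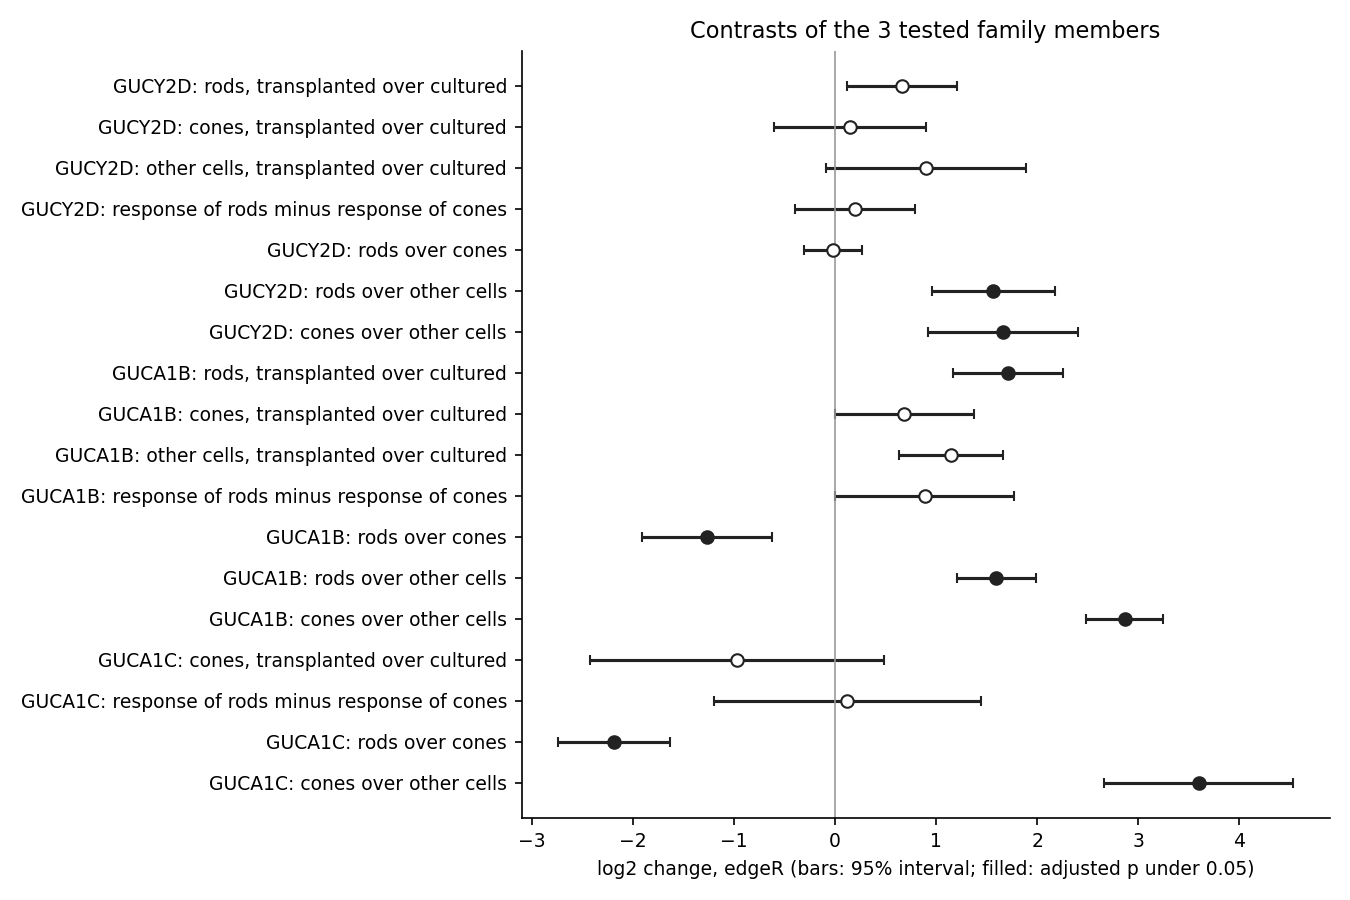
Log2 differences from edgeR (horizontal axis, bars are 95% intervals) for GUCY2D, GUCA1B and GUCA1C in each comparison they entered; filled points had an adjusted p under 0.05. Transplantation has 1 filled point, GUCA1B in rods at 1.71, a change known when the family was chosen. Between classes 7 of the points are filled.

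GUCA1B was also counted as the share of cells with at least 1 UMI. In rods the share was 27.4%, 35.3% and 44.6% in transplanted Sets 1, 2 and 3, against 7.32%, 26.2% and 13.8% in cultured Sets 1, 2 and 3. The groups did not overlap, with means of 35.7% ± 8.62 in transplanted and 15.8% ± 9.62 in cultured rods (SD, n = 3 each). An exact two-sided permutation test that did not use the pairing by Set gave p = 0.1, the smallest that 3 unpaired samples against 3 allow. In cones the share was 50.7%, 47.1% and 79.3% in transplanted samples, against 28.9%, 59.8% and 54.0% in cultured samples, with overlap (exact permutation p = 0.6). Single cells reached 88 GUCA1B UMIs in transplanted Set 3 rods and 125 in transplanted Set 3 cones.

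Depth differed between the libraries, so each cell was also thinned to 2000 UMIs and shallower cells were left out, 375 of 3032 in transplanted rods and 846 of 6062 in cultured rods. The thinned share was 15.1%, 12.5% and 20.3% in transplanted rods, against 4.46%, 7.98% and 8.54% in cultured rods, without overlap (exact permutation p = 0.1). In cones it was 28.0%, 23.3% and 41.4% in transplanted samples, against 17.4%, 22.4% and 21.1% in cultured samples, also without overlap (exact permutation p = 0.1). Thinned cones thus had a higher share in transplanted samples in 3 of 3 Sets, while the unthinned share was higher in 2 of 3.

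Cells that should lack a photoreceptor gene set the background from free RNA. Glia-gated cells, with at least 5 UMIs of glial markers and 0 of NRL, PDE6H and CRX, had thinned shares of 0.333% ± 0.577 in transplanted and 0.533% ± 0.557 in cultured samples (SD, n = 3 each). The thinned glial gate held 300, 8 and 18 cells in transplanted samples, against 411, 90 and 4 cells in cultured samples, so the values of 0 in transplanted Sets 2 and 3 and cultured Set 3 rest on few cells. Inner-neuron-gated cells had 1.25% ± 2.17 in transplanted and 2.24% ± 2.01 in cultured samples. In CPM, the glial gate held 4.34, 23.5 and 6.46 in transplanted samples, against 2.16, 9.41 and 13.2 in cultured samples, where the values of Sets 2 and 3 rest on 1 to 10 UMIs. GUCA1B in rods and in cones lay above both gates in 6 of 6 samples.

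**Figure D3:**
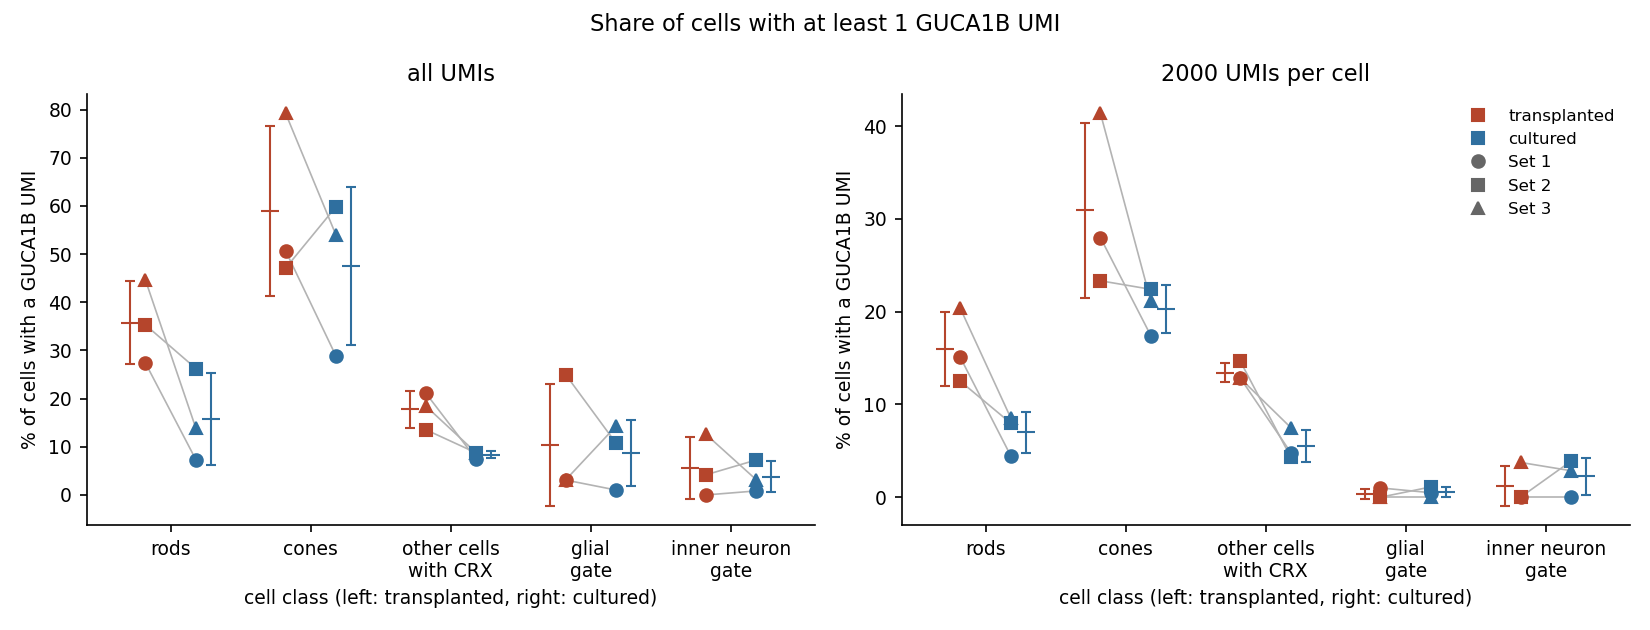
Percentage of cells with at least 1 GUCA1B UMI (vertical axes) in rods, cones, other cells with a CRX UMI and the 2 background gates, with all UMIs (left) and at 2000 UMIs per cell (right). Symbols are Sets, transplanted left of cultured, and bars are mean ± SD of 3 samples; at equal depth rods and cones of all samples lie above the glial gate, whose highest value is 1.11%.

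The same count for GUCY2D was near its limit. In rods the thinned share was 1.16%, 3.12% and 4.96% in transplanted samples, against 0.546%, 1.88% and 3.56% in cultured samples, with overlap (exact permutation p = 0.5). In glia-gated cells 5 of 6 samples had 0 thinned cells with a GUCY2D UMI, and transplanted Set 3 had 2 of 18 cells. In CPM, the glial gate held 0, 0 and 32.3 of GUCY2D in transplanted samples, against 0.432, 0 and 13.2 in cultured samples. The inner neuron gate held 0, 0 and 3.09 CPM in transplanted samples, against 0, 2.03 and 11.3 CPM in cultured samples. The Set 3 gate values come from 1 to 5 UMIs, and at that precision GUCY2D in Set 3 rods and cones, at 15.3 to 21.1 CPM, was not clearly above background.

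GUCA1B in cells near the gates gives the effect of the threshold. Cells with 3 NRL UMIs, just inside the rod gate, had 23.3, 0 and 88.7 CPM of GUCA1B in transplanted samples, against 14.8, 53.4 and 32.4 CPM in cultured samples. Cells with 2 NRL UMIs, just outside, had 22.4, 105 and 63.5 CPM in transplanted samples, against 13.6, 23.9 and 28.9 CPM in cultured samples. The transplanted Set 2 values come from 5 cells inside and 8 cells outside. Just inside the cone gate, at 3 PDE6H UMIs, GUCA1B was at 39.2 to 167 CPM over the 6 samples, and just outside, at 2 PDE6H UMIs, at 22.3 to 139 CPM.

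GUCA1C (ENSG00000138472, chr3:108907792-108953895, minus strand), which encodes GCAP3, was found at a low level and mainly in cones. In cones it had 0.328, 1.84 and 3.25 CPM in transplanted Sets 1, 2 and 3, against 1.62, 2.21 and 4.62 CPM in cultured Sets 1, 2 and 3. These come from 3, 1 and 39 UMIs in transplanted cones and 18, 41 and 7 UMIs in cultured cones. The groups overlapped, and the transplanted sample was the lower one in 3 of 3 Sets. In rods it stayed at 0.0868 to 2.23 CPM and in other cells at 0 to 1.21 CPM.

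GUCA1C was lower in rods than in cones by a log2 difference of -2.19 (SE 0.26, 95% interval -2.74 to -1.63, edgeR adjusted p = 1.59e-05), in 6 of 6 samples. Cones exceeded other cells by 3.60 (SE 0.43, 95% interval 2.67 to 4.53, edgeR adjusted p = 0.000108). The difference between transplanted and cultured cones, -0.97 on the log2 scale, had a 95% interval from -2.42 to 0.48 and was not called (edgeR adjusted p = 0.646). It ran from -1.88 to -0.22 with single samples or Sets left out. GUCA1C did not pass the low-count filter in rods and was not tested there.

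GUCA1B was the one member at 20 CPM or more in a class, and its pattern was compared with that of 8075 other genes at that mean level, over 18 sums (3 classes in 6 samples that share libraries and depth). The most alike were ECHDC2, which encodes an enoyl-CoA hydratase family protein (Pearson r = 0.953 on log2(CPM + 1)), NPTX1, which encodes a neuronal pentraxin (r = 0.917), and GRM6, the glutamate receptor of ON bipolar cells (r = 0.914). ECHDC2 had 57.6, 117 and 112 CPM in transplanted rods, against 40.0, 59.6 and 65.8 CPM in cultured rods. GRM6 had 62.6, 172 and 123 CPM in transplanted rods, against 21.9, 71.9 and 71.0 CPM in cultured rods.

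The first of 7 gene lists of the pathway, named cyclase partners, held RD3, RD3L, AIPL1, PRPH2, IQCB1 and GUCA1ANB. The name is that of the list, and binding to the cyclase was not tested. In transplanted rods 1 of 5 tested genes of this list was higher and 0 were lower, with a median log2 change of 0.56. Over all genes the median was -0.02, with 2.18% called higher and 2.24% lower. The called gene was AIPL1, a chaperone needed for phosphodiesterase in photoreceptors, whose log2 change was 1.40 (SE 0.36, edgeR adjusted p = 0.0337). It had 481, 961 and 887 CPM in transplanted rods, against 245, 440 and 294 CPM in cultured rods. These groups did not overlap. In cones AIPL1 had a log2 change of 1.16 (SE 0.39) and was not called (edgeR adjusted p = 0.24), although its groups did not overlap.

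RD3, which binds the cyclases, inhibits them and is needed for their transport, did not differ detectably after transplantation. It had 27.3, 75.9 and 83.5 CPM in transplanted rods, against 29.3, 66.6 and 112 CPM in cultured rods, with a log2 change of 0.06 (SE 0.21, edgeR adjusted p = 0.918). In cones the log2 change of RD3 was -0.09 (SE 0.27, edgeR adjusted p = 0.932). Between classes RD3 was lower in rods than in cones in 6 of 6 samples, by a log2 difference of -0.78 (SE 0.08, edgeR adjusted p = 5.21e-06). PRPH2, a structural protein of outer segment discs, was higher in rods than in cones, by 0.56 (SE 0.14, edgeR adjusted p = 0.0232).

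Of the other calcium sensors related to the GCAPs, 0 of 9 tested were higher and 2 were lower in transplanted rods. Over all genes 2.18% were called higher and 2.24% lower. The median log2 change of the 9 was -0.19. NCALD, a neuronal calcium sensor, had 18.4, 19.0 and 22.5 CPM in transplanted rods, against 36.4, 41.0 and 49.4 CPM in cultured rods, a log2 change of -0.91 (SE 0.19, edgeR adjusted p = 0.0134). NCS1, another neuronal calcium sensor, had 24.4, 17.3 and 17.1 CPM in transplanted rods, against 40.9, 43.8 and 31.6 CPM in cultured rods, a log2 change of -0.82 (SE 0.20, edgeR adjusted p = 0.0283). Neither pair of groups overlapped. RCVRN, which encodes recoverin, a calcium sensor of photoreceptors, had 1522, 2678 and 2838 CPM in transplanted rods, against 1829, 1747 and 1271 CPM in cultured rods, and was not called (log2 change 0.67, SE 0.48, edgeR adjusted p = 0.469).

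Among genes that act before and after cyclic GMP in the light response, every call in transplanted rods was lower, and the genes not called had changes of both signs. Over all genes 2.18% were called higher and 2.24% lower in rods. Of 6 transducin genes tested, 0 were higher and 2 were lower, with a median log2 change of -0.28. GNB3, the transducin beta subunit of cones, named after its values were seen, had 683, 845 and 687 CPM in transplanted rods, against 404, 382 and 239 CPM in cultured rods, without overlap, and its log2 change of 1.31 (SE 0.36) was not called (edgeR adjusted p = 0.0501). GNGT1, the transducin gamma subunit of rods, had 4.08, 19.0 and 22.8 CPM in transplanted rods, against 33.7, 48.5 and 79.2 CPM in cultured rods, a log2 change of -1.84 (SE 0.31, edgeR adjusted p = 0.00739). GNGT2, the gamma subunit of cones, had a log2 change of -1.61 in rods (SE 0.28, edgeR adjusted p = 0.00451) and of -1.81 in cones (SE 0.32, edgeR adjusted p = 0.0202). Its values did not overlap in either class, at 64.4 to 147 CPM in transplanted and 215 to 629 CPM in cultured rods.

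Of 7 cyclic GMP-gated channel and exchanger genes, 0 were higher and 1 was lower in transplanted rods, with a median log2 change of 0.11. SLC24A4, a sodium, calcium and potassium exchanger, fell by 1.32 on the log2 scale (SE 0.27, edgeR adjusted p = 0.0103), lower in 3 of 3 Sets. In transplanted cones 1 of the 7 was higher and 1 lower, against 0.238% of all genes called higher and 0.318% lower. CNGB1, the channel beta subunit of rods, rose by 1.15 in cones (SE 0.23, edgeR adjusted p = 0.0396), and SLC24A4 fell by 1.47 in cones (SE 0.25, edgeR adjusted p = 0.019). Of 7 opsin and shut-off genes tested in rods and 6 in cones, RGS9, which speeds transducin shut-off, was lower in both, by a log2 change of -1.01 in rods (SE 0.24, edgeR adjusted p = 0.0236) and -1.59 in cones (SE 0.28, edgeR adjusted p = 0.0218). The median log2 change of these 7 genes in rods was 0.83, and the other 6 had positive changes that were not called, such as, chosen after their values were seen, 1.10 for SAG, the arrestin of rods (SE 0.43, edgeR adjusted p = 0.159) and 0.98 for ARR3, the cone arrestin (SE 0.34, edgeR adjusted p = 0.11).

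Of 5 genes for cyclic GMP hydrolysis and 4 other guanylate cyclases tested, 0 were called after transplantation in rods or in cones. In other cells GNGT2 was the 1 gene called among the 7 lists, lower by a log2 change of -2.01 (SE 0.27, edgeR adjusted p = 0.0218), where 0.0887% of all genes were called lower and 0.123% higher. Without the Set in the model 0 genes of any list were called by edgeR in these 3 comparisons.

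**Figure D4:**
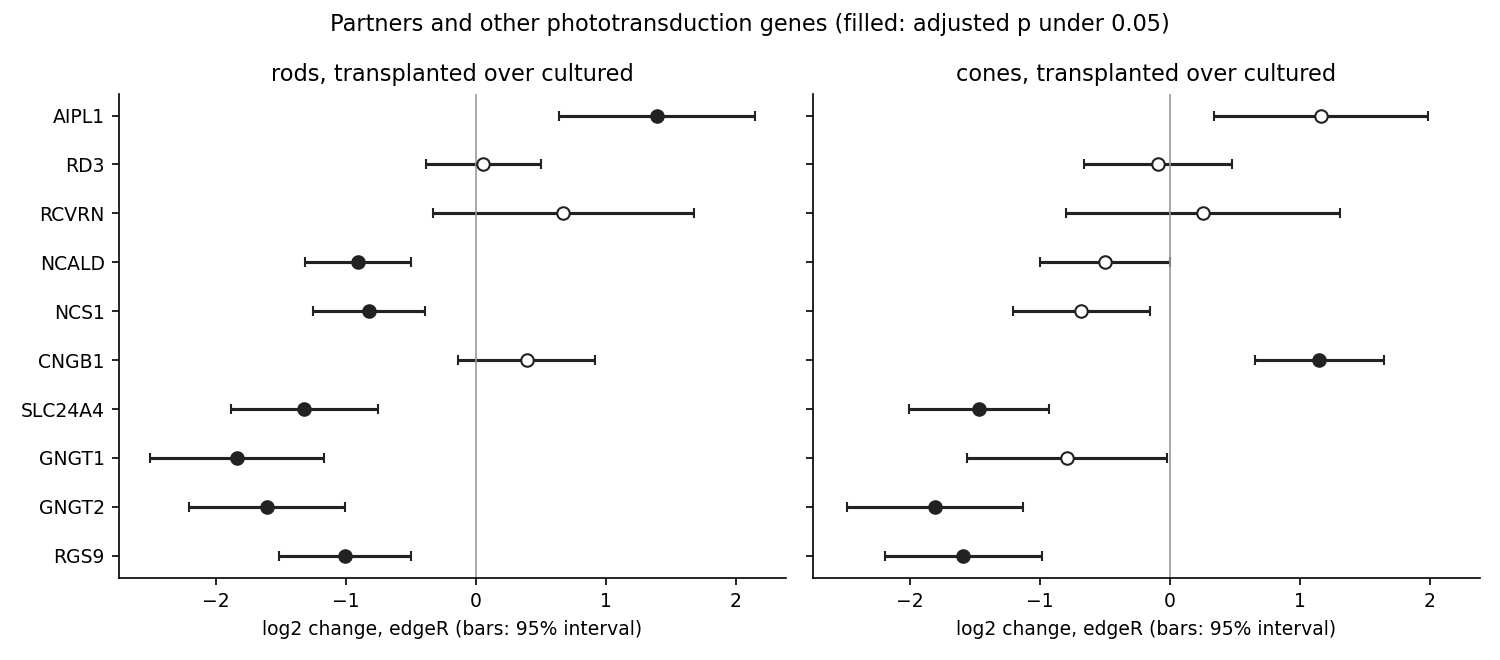
Log2 change of AIPL1, RD3 and other genes of the pathway lists in transplanted over cultured rods (left) and cones (right), from edgeR (horizontal axes, bars are 95% intervals, filled points had an adjusted p under 0.05). In rods AIPL1 is the filled point above 0, at 1.40, and NCALD, NCS1, SLC24A4, GNGT1, GNGT2 and RGS9 are filled below 0.

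Many list genes were called between rods and cones, at edgeR adjusted p values up to 0.0392. Of the genes tested, 2 of 6 transducins, 3 of 7 channel and exchanger genes and 2 of 5 hydrolysis genes were higher in rods, and 1, 4 and 1 were lower, against 6.33% of all genes called higher and 8.15% lower. Higher in rods were GNAT1, the rod transducin alpha subunit (log2 difference 1.68, SE 0.15), CNGA1, the rod channel alpha subunit (1.52, SE 0.14), PDE6B, a rod phosphodiesterase subunit (0.93, SE 0.12), and PDE6G, the rod inhibitory subunit (1.44, SE 0.11). Lower in rods were GNAT2, the cone transducin alpha subunit (-1.39, SE 0.09), CNGB3, a cone channel subunit (-1.87, SE 0.19), and PDE6C, the cone phosphodiesterase (-1.62, SE 0.20). Among the related calcium sensors 0 of 9 were higher and 5 were lower in rods, the direction that GUCA1B and GUCA1C had. Of the other guanylate cyclases, GUCY1A1 was higher in rods (0.43, SE 0.13), and NPR2 (-0.57, SE 0.16) and GUCY1A2 (-0.47, SE 0.08) were lower.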

How the data were processed

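Single-cell libraries (10x 3' v3.1 chemistry, per the labels' protocols) of 6 samples were used. The deposited matrices hold raw UMI counts, made by the authors with Cell Ranger 6.0.2 for Set 1 and Cell Ranger 7.1.0 for Sets 2 and 3, per the file headers, and build GRCh38, per the submitters' processing notes. Whether intronic reads were counted is not given in the sources used here. The default for intronic reads differs between these versions, so levels in Set 1 and in Sets 2 and 3, and means over all 6 samples, may differ in what was counted, while both samples of a Set shared a version.

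Kept cells had a minimum of 1000 UMIs and 500 genes, with no more than 20% of UMIs mitochondrial. Doublets were scored with Scrublet (Scanpy 1.11.5, 30 components). Its own threshold called 0, 1 or 2 cells in 5 libraries and 2554 in the other, so the highest scores were removed up to 0.8% per 1000 cells. The median UMI count per kept cell was 3208 to 3419 in transplanted and 2119 to 4112 in cultured libraries.

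Counts were summed per sample and class and tested with edgeR 4.0.16 (quasi-likelihood, TMM, filterByExpr, R 4.3.3), with Benjamini-Hochberg adjustment over all genes and a threshold of 0.05. The Set was a block for transplanted over cultured and the sample was the block between classes. The pairing comes from the shared organoid batch. The deviations of same-Set samples from their group means correlated at 0.592 to 0.944 over 10617 genes in rods and at 0.401 to 0.933 over 10518 genes in cones. Those of different Sets correlated at -0.923 to 0.589 in rods and -0.837 to 0.600 in cones, and transplanted Set 2 correlated about as well with cultured Set 3 in rods (0.589, own Set 0.592) and better in cones (0.600, own Set 0.401). Shares of cells were compared by exact permutation tests over samples, which did not use the pairing by Set. Intervals on counts and ratios are exact at 95% and cover counting error only. The 95% intervals of log2 changes are not adjusted for the number of genes tested.

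Alternatives were DESeq2 1.42.0, no block, library-size scaling, no filter, left-out samples, other gates, thinning, stricter cells, no doublet removal and cells free of the other gate gene. A host filter (cells under percentile 1 of cultured cells of the Set in clone-named transcripts left out) and DESeq2 without the block were chosen after seeing the data. The edgeR fit was tested on simulated data.

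The members and gene lists were chosen with earlier results of these data known. Named were all 5 members, list genes past the threshold (up to 4 per list and direction), RD3 and RCVRN, and the 3 most alike genes of a member at 20 CPM or more. NRL and PDE6H were not tested. GUCA1ANB was matched by symbol in the lists and is not among the tested genes. For transplanted over cultured, p-values measure the spread between experiments of 1 cell line. Between classes and for the difference of responses they measure the spread between 6 libraries. These came from 3 experiments, so libraries of a Set are not independent there. One marker gene of the lists is not reported here.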

Additional observations from a re-analysis of the deposited data

How the results depend on the processing

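The count of called genes moved most with the model and the Sets used. Without a replicate block edgeR called 0 genes in rods, 0 in cones, 0 in other cells and 0 for rods over cones, 185 for rods over other cells and 407 for cones over other cells. DESeq2 without the block called 25 in rods, 6 in cones and 10 in other cells. DESeq2 with the block called 219 in other cells and 2 for the difference of responses. Leaving out samples gave 299 to 1027 calls in rods, 6 to 555 in cones, 6 to 656 in other cells, 1018 to 2832 for rods over cones, 1972 to 5804 for rods over other cells, 2978 to 6205 for cones over other cells and 1 to 51 for the difference of responses. Library-size scaling gave 263 calls in cones and 95 in other cells, and no low-count filter 365 and 378. The gate of 2 UMIs gave 35 in cones and 72 in other cells, and that of 5 UMIs 66 in other cells. Thinning gave 146 in rods, 94 in other cells, 3633 for cones over other cells and 11 for the difference of responses, and the host filter 1283, 265 and 151 in rods, cones and other cells. Rods without PDE6H gave 159 and cones without NRL 28. Transplanted samples alone gave 326 for rods over cones, 1498 for rods over other cells and 1696 for cones over other cells, and cultured samples alone 2482 and 3549 for those against other cells. The cause was not tested.

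Of 252 member values under these settings, 218 kept their direction and their side of the threshold, 12 lost the call, 11 gained it and 11 changed sign. With the Set as a block, a sample whose partner is left out adds little to the transplanted over cultured change. Leaving out 1 sample thus largely repeats leaving out its Set, and the counts of settings include such repeats. GUCA1B in rods kept its direction in all 21 settings (1.38 to 2.05) and its call in 20, the exception being no replicate block. These settings reuse the samples in which that change was already known and are not independent support. Without the block the class calls were also lost for rods over cones in GUCA1C (-1.97) and GUCA1B (-1.08), for rods over other cells in GUCA1B (1.73) and GUCY2D (1.20), and for cones over other cells in GUCA1C (3.23) and GUCY2D (1.11). The values that changed sign lay between -0.30 and 0.17, all in results that were not called. The largest were those of GUCY2D in transplanted over cultured cones, at -0.30 to -0.22 in 3 settings. GUCY2D in rods over cones was 0.066 with no replicate block, 0.036 at the gate of 5 UMIs, 0.172 thinned and 0.077 in transplanted samples alone, and -0.14 to 0.12 with a Set left out. With samples left out, GUCY2D in cones ran from -0.30 to 0.42, and the difference of responses from -0.011 to 0.44 for GUCY2D and from -0.089 to 0.70 for GUCA1C. The share of cones with a GUCY2D UMI differed by 1.69 points unthinned and by -1.73 points thinned. Depth limits GUCY2F, GUCA1A and GUCA1C.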
